A study of Mus musculus with 5 samples.

Results

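The regions described here are 5283 tiles of 1000 bp in the mouse sperm genome that were neither fully methylated nor fully unmethylated and that held few CpG dinucleotides. A tile was taken if it lay on an autosome, had under 40 distinct CpG positions listed in any library, held at least 3 CpGs with 10 or more reads in every library, and had a methylation level between 20 and 60% as the mean of 5 libraries. The level of a tile is the percentage of methylated reads among all reads over its measured CpGs, with both strands added. These tiles made up 4.02% of the 131486 autosomal tiles of the same low CpG density, out of 135997 tiles measured in all. The other 126203 low-density tiles serve as the comparison. The assay was whole-genome bisulfite sequencing, and the DNA came from C57BL/6 mouse sperm collected by swim-out from the cauda epididymis, where mature sperm are kept. There were 2 libraries of old mice aged 18 months (old replicates 1 and 2) and 3 libraries of young mice aged 2 months (young replicates 1 to 3), and the study asked which regions differ in methylation between the ages. Whether a library stands for 1 animal or for pooled animals is not in the labels, so any p-value measures only the spread between these libraries.

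In mammalian sperm most CpGs are methylated, a state set before birth in the precursors of the germ line by the de novo DNA methyltransferases, while CpG-rich promoters and enhancers escape it. Tiles of intermediate level are the exception, and a tile can reach such a level by more than one route. Some of its CpGs can be methylated and others not, as at the border of an unmethylated promoter, or each CpG can itself be methylated in part of the DNA molecules. The files give one level for each CpG and no single reads, so molecules that are each methylated at some CpGs and a blend of methylated and unmethylated molecules cannot be told apart.

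The CpGs of each tile were therefore sorted by their own level over the 5 libraries into low (under 20%), partial (20 to 80%) and high (over 80%). A tile was called uniformly partial if at least 80% of its measured CpGs were partial, and mixed if it held at least 1 low and at least 1 high CpG and under 50% of its CpGs were partial. Tiles that met neither description are called graded. There were 3899 uniformly partial tiles (73.8%), 182 mixed tiles (3.45%) and 1202 graded tiles (22.8%). In 3286 tiles every measured CpG was partial, and in 23 tiles none was.

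Both kinds are seen in the promoter sequences below, which show 2 mixed tiles and 4 uniformly partial tiles. They were picked after their values were seen, among the promoters that overlap a described tile with 3 or more measured CpGs (32 promoters of 31 genes). The sequences are from RefSeq (GRCm38.p6), run 5′ to 3′ on the strand of the gene from 250 bases before to 50 bases after its start, and have the CpGs measured in every library in capitals. The first 2 are promoters in mixed tiles. Setdb1, which encodes a histone H3 lysine 9 methyltransferase, is on the minus strand at chr3:95357153-95357452, and Caly, which encodes calcyon, a vesicle protein of neurons, is on the minus strand at chr7:140082499-140082798. The other 4 lie in uniformly partial tiles: Slco6b1, a gene of the organic anion transporter family (minus strand, chr1:96997511-96997810), Fkbp6, a co-chaperone of the piRNA pathway in male germ cells (minus strand, chr5:135349995-135350294), the zinc finger gene Zfp981 (plus strand, chr4:146514670-146514969) and Nanos3, an RNA-binding protein of germ cells (minus strand, chr8:84176503-84176802).
Setdb1: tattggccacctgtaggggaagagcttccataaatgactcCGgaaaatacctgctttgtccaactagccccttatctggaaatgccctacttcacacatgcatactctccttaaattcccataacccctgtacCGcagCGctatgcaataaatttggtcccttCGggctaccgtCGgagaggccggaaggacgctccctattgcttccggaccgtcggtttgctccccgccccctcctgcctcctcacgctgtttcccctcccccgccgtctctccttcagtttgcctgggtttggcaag
Caly: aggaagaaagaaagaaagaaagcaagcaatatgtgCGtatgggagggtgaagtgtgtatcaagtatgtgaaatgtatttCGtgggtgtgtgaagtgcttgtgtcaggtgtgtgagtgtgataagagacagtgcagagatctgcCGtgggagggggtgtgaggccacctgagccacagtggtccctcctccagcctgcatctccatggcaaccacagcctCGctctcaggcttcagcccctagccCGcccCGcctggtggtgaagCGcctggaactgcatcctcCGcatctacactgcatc
Slco6b1: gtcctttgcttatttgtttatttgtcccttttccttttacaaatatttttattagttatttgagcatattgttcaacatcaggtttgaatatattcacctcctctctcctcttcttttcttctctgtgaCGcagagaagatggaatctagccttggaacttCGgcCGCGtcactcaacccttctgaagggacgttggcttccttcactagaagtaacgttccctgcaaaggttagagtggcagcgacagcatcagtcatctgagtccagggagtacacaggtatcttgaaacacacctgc
Fkbp6: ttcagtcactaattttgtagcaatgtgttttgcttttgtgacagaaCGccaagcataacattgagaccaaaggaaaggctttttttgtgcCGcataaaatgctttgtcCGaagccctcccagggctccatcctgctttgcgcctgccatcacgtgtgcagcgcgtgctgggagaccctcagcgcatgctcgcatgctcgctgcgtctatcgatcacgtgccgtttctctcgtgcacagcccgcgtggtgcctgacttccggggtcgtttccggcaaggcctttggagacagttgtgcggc
Zfp981: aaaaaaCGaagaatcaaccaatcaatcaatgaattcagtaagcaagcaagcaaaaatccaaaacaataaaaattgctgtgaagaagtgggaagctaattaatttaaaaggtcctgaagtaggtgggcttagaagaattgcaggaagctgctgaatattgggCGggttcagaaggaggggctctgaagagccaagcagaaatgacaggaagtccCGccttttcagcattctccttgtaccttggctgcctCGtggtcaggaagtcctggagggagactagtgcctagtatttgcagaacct
Nanos3: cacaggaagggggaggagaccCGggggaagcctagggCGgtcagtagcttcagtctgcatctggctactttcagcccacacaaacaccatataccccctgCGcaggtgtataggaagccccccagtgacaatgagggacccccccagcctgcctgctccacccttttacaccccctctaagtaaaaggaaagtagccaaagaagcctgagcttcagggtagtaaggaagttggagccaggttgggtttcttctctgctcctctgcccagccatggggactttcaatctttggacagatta

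In the Setdb1 promoter the 5 capital CpGs had mean levels between 1.11 and 3.21%, while the remaining measured CpG of the same tile stood at 93.1%. The tile as a whole was at 37.5 and 44.4% in old replicates 1 and 2, against 36.0, 42.6 and 38.3% in young replicates 1 to 3. Its middling level thus came from CpGs at both ends of the scale and from none between them. Reads were summed, so the level also rested on how many fell on the 1 high CpG. With each CpG weighted equally it would be lower. The Caly tile was built alike, with 8 low CpGs, 1 partial CpG and 1 high CpG at 87.3%, and within the printed promoter the level went down from 43.7% at base 36 to 4.50% at base 144, counted from the 5′ end of the sequence.

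In the Fkbp6 promoter the 3 capital CpGs stood at 18.8, 21.4 and 23.7%, and 12 of the 14 measured CpGs of the tile were partial. That tile was at 30.7 and 25.3% in old replicates 1 and 2, against 25.6, 15.4 and 40.5% in young replicates 1 to 3, so the lowest and the highest library were both young. The 4 CpGs of the Slco6b1 promoter lay between 27.3 and 36.4%, and the tile was at 33.5 and 29.96% in old replicates 1 and 2 and at 33.3, 22.1 and 48.6% in young replicates 1 to 3. The 4 CpGs of the Zfp981 promoter lay between 20.6 and 30.6%, and the 8 other measured CpGs of its tile between 19.9 and 86.9%. That tile was at 45.8 and 51.9% in old replicates 1 and 2, against 42.6, 43.6 and 53.0% in young replicates 1 to 3. Nanos3 differed in which library was high, with young replicate 2 above the rest. Its tile was at 36.1 and 42.7% in old replicates 1 and 2, against 42.5, 68.0 and 35.9% in young replicates 1 to 3. The 3 measured CpGs of that tile lay between 28.6 and 70.6%.

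Promoters were few among the tiles but more frequent than among the other low-density tiles. A RefSeq promoter sequence was overlapped by 210 of the 5283 tiles (3.98%), against 0.696% of the other low-density tiles. The 231 promoters so overlapped had a median of 12 CpGs in their 300 bases, while all 32851 promoters had a median of 7. The E-box CACGTG, which reads alike on both strands, was found in 11.3% of the overlapped promoters and in 7.15% of all promoters. The motif TCCCGC, searched on both strands, was in 19.5% and 19.98%, and TATAAA, searched on both strands, in 8.66% and 13.6%. The promoters so compared were not matched for CpG content, and CACGTG and TCCCGC hold a CpG while TATAAA does not. Among the 6 promoters printed, Fkbp6 held CACGTG at 2 places and Zfp981 held TCCCGC once. A match of letters shows no bound factor.

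Young replicates 2 and 3 stood apart from the other 3 libraries in opposite directions, so the mean differences between the ages and the counts of tiles and CpGs past a threshold are also given without them. Reads over listed cytosines numbered between 67774094 and 97769462 per library, with 67774094 in young replicate 2 and 97769462 in young replicate 3. The measured CpGs, 984827 in number, were 7.54% of all CpGs listed in any library and favour deeply covered places. Sperm identity could be checked at few imprinted loci, over every listed CpG of a tile. The least methylated tile near a gene end was taken for maternally imprinted genes, and all such tiles for paternally methylated genes. H19 and Rasgrf1, methylated on the paternal allele, had levels between 65.2 and 96.2% over all libraries. Kcnq1ot1 was at 20.6 and 38.5% in old replicates 1 and 2, against 0.893, 11.4 and 37.5% in young replicates 1 to 3. Mest was at 4.35 and 48.0% in the old and at 15.2, 27.5 and 47.5% in the young libraries, and Nnat at 19.1 and 16.5% in the old and at 13.1, 7.18 and 25.2% in the young libraries. The tile near Snrpn, between 72.4 and 87.1%, was not low in any library, and whether it covers the control region was not tested. Over the 4 of 12 maternally imprinted loci measured, the means were 30.6 and 45.6% in old replicates 1 and 2 and 25.4, 33.3 and 46.8% in young replicates 1 to 3. These means include the Snrpn tile, and the reads in a library were 33 to 61 at Mest and 35 to 131 at Kcnq1ot1. By these means young replicate 3 was highest here, as it was at the described tiles. At single loci it was highest only at Nnat, while old replicate 2 was highest at Mest and Kcnq1ot1 and young replicate 2 at Snrpn. In the mean, old replicate 2 came close to young replicate 3 here. It did not at the described tiles, with means of 45.3% in old replicate 2 and 52.3% in young replicate 3. DNA of other cells as a part of either was not tested.

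CpGs inside a uniformly partial tile differed less from each other than those of a mixed tile, which the sorting itself sets. The standard deviation between the CpGs of a tile had a median of 10.6 points in uniformly partial tiles, 36.2 points in mixed tiles and 23.0 points in graded tiles. Counting error alone would give a median of 4.05 points in uniformly partial tiles, so their CpGs also differed by more than counting error. Of the 30030 CpGs measured in the tiles, 85.5% were partial, 8.84% low and 5.61% high. Of the partial CpGs, 64.4% lay between 20 and 80% in each of the 5 libraries.

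**Figure D1:**
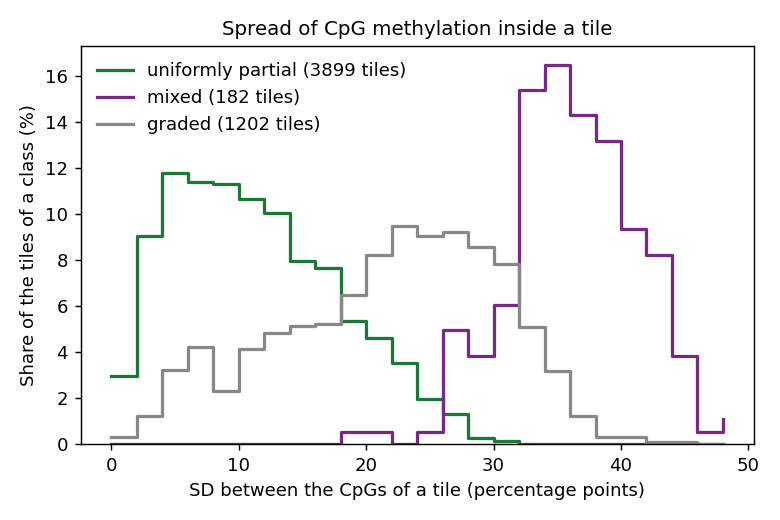
Share of the tiles of each class (y axis, %) by the standard deviation between the levels of the CpGs of a tile (x axis, percentage points, means over 5 libraries). Lines stand for uniformly partial, mixed and graded tiles, whose medians are 10.6, 36.2 and 23.0 points.

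Where both strands of a CpG could be read, their mean levels were close, while single CpGs differed by more than counting error. A total of 1633 partial CpGs had at least 5 reads on each strand in all 5 libraries, and their means were 47.9% on the forward and 48.0% on the reverse strand. The difference between the strands had a standard deviation of 10.01 points, against 6.00 points from counting error, and 26 of these CpGs (1.59%) differed by over 30 points. Of the 1633 CpGs, 95.1% were partial on each strand taken alone. The 26 low CpGs of uniformly partial tiles so measured were at 8.38% on the forward and 17.1% on the reverse strand. This check covers a small share of the CpGs, because on average 84.0% of the described CpGs in a library had reads listed on one strand, as had 86.5% of those in the other low-density tiles. It favours deeply covered CpGs, and how many of them lay in the deep runs described below was not counted.

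In mixed tiles the low and high CpGs were ordered along the DNA. In 173 of the 182 mixed tiles (95.1%) the low CpGs all lay on one side and the high CpGs on the other, in 7 tiles there were 2 changes between low and high, and in 2 tiles there were 3 or more. The nearest low and high CpG of a tile were a median of 358 bp apart, with a range from 6 to 868 bp, and lay within 100 bp in 16 tiles. Mixed tiles need at least 1 CpG of each kind, so with few CpGs a single change is frequent by construction.

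The 6 mixed tiles with the most measured CpGs each lay in a gene. In Gpr179, a receptor of retinal bipolar cells (chr11:97339001-97340000), 12 CpGs were low and 3 were high, with none between and a range from 1.25 to 99.1%. The tile before it in the genome was at 3.57% and the tile after it at 91.8%. The tile was at 38.4 and 27.6% in old replicates 1 and 2, against 29.7, 28.7 and 28.8% in young replicates 1 to 3. The tile in the lncRNA gene Gm51589 (chr8:111747001-111748000) had 6 low, 2 partial and 6 high CpGs between 0.909 and 98.3%. It varied little between libraries, at 44.0 and 45.7% in old replicates 1 and 2 and 46.9, 44.2 and 47.4% in young replicates 1 to 3. Sh3bp2, an adaptor protein of immune signalling (chr5:34525001-34526000), had 22 low CpGs with 1 partial and 1 high, and was at 18.8 and 20.8% in old replicates 1 and 2, against 22.5, 23.0 and 20.2% in young replicates 1 to 3. Wdr66, a protein of the sperm flagellum (chr5:123252001-123253000), was at 35.2 and 31.5% in the old and 34.1, 30.6 and 38.1% in the young libraries, and the actin-related gene Actr3b (chr5:25768001-25769000) was at 41.0 and 36.8% in the old and 27.5, 32.1 and 40% in the young libraries. Fblim1, a filamin-binding protein (chr4:141586001-141587000), was the widest of the 6, at 42.2 and 48.7% in old replicates 1 and 2 and 44.8, 42.3 and 63.6% in young replicates 1 to 3, and it also had the most partial CpGs, 7 of 16.

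The 6 uniformly partial tiles with the most measured CpGs had between 27 and 34 of them. Arl9, a small GTPase gene (chr5:77002001-77003000), had 34 of 34 CpGs partial, between 22.0 and 64.5%. Its tile was at 32.04 and 37.1% in old replicates 1 and 2, against 34.3, 24.0 and 48.9% in young replicates 1 to 3. Zc3h13, a part of the RNA methyltransferase complex for N6-methyladenosine (chr14:75327001-75328000), had 31 of 31 CpGs partial and followed the same order of libraries, at 53.2 and 57.5% in old replicates 1 and 2 and 56.4, 43.0 and 65.2% in young replicates 1 to 3. Jarid2, a cofactor of Polycomb repressive complex PRC2 (chr13:44869001-44870000), had 32 of 32 CpGs partial within a narrow range from 37.6 to 51.1%. Here young replicate 3 was the lowest library, with 49.1 and 58.3% in old replicates 1 and 2 and 38.2, 55.1 and 28.5% in young replicates 1 to 3. Cdk8, the kinase of the Mediator complex (chr5:146261001-146262000), had 32 of 33 CpGs partial and was at 49.9 and 66.4% in old replicates 1 and 2, against 37.3, 44.9 and 31.1% in young replicates 1 to 3, which do not overlap. The remaining 2 tiles, 29.9 kb from Sfi1 on chromosome 11 and at chr9:3018001-3019000, had at least 10978 reads in each library.

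**Figure D2:**
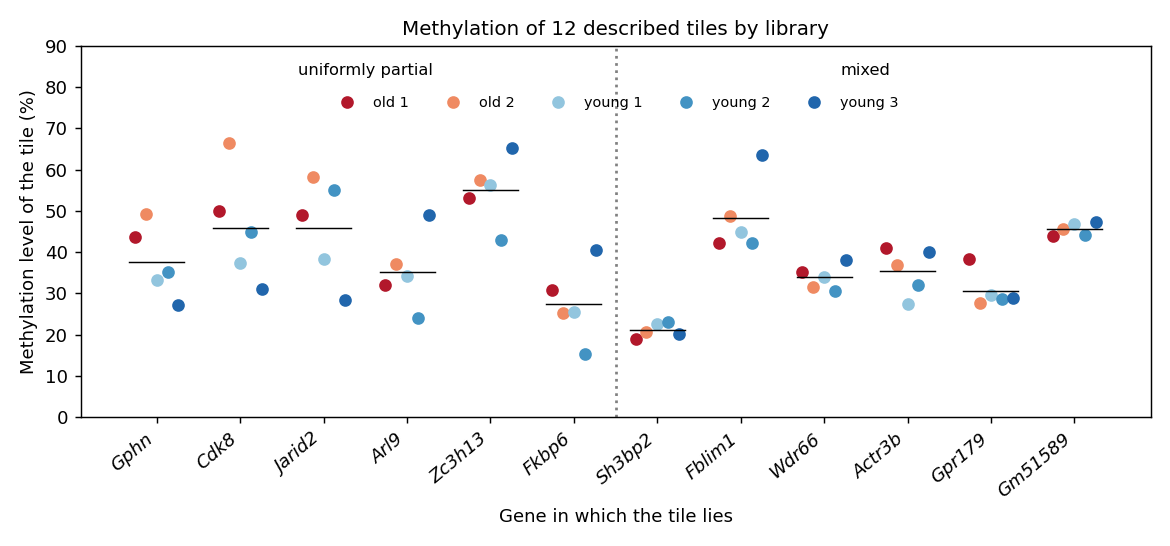
Methylation level (y axis, %) of 12 tiles named by the gene in which they lie (x axis), in old replicates 1 and 2 and young replicates 1 to 3, one point per library and a line at the mean of 5 libraries. The libraries of the Gm51589 tile lie between 44.0 and 47.4%, while those of the Jarid2 tile spread between 28.5 and 58.3%.

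Around the tiles, methylation returned to a high level within 2 kb. The median level was 47.3% in the tiles, 69.7 and 69.1% in the tiles 1 kb before and after them, 89.4% in those 2 kb away on either side, and between 91.0 and 91.8% from 3 to 5 kb. The other low-density tiles had 94.5% at their centre and between 93.8 and 94.1% around it. The adjoining levels were then counted by class. Of 155 mixed tiles with at least 3 listed CpGs in both adjoining tiles, 33.5% had one adjoining tile under 20% and the other over 80%. The same held for 6.63% of 2624 uniformly partial tiles and 1.12% of 82644 other low-density tiles. Both adjoining tiles were partial in 30.3% of the uniformly partial and 7.10% of the mixed tiles, and both were over 80% in 12.6% and 10.97%, against 79.4% of other low-density tiles. The tile near Odf2, a gene of the outer dense fibres of the sperm tail, was one of the mixed kind, with 94.7% on one side and 3.48% on the other and CpGs between 6.26 and 97.9%.

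**Figure D3:**
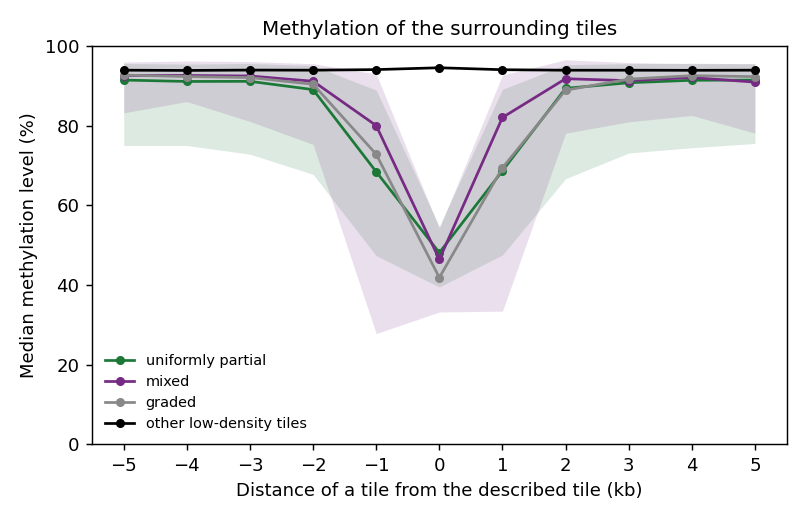
Median methylation level (y axis, %) of the tiles at each distance (x axis, kb) from uniformly partial, mixed, graded and other low-density tiles, with the 25th to 75th percentiles shaded for the uniformly partial and mixed tiles. Levels take in every listed CpG, with reads pooled over the libraries. The medians of the described classes dip at 0 kb and are near 90% from 2 kb outwards.

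The level of the tiles differed more between young libraries than between the ages. Averaged over the 5283 tiles it was 43.9 and 45.3% in old replicates 1 and 2, against 43.0, 38.5 and 52.3% in young replicates 1 to 3. The old libraries lie inside the range of the young ones, with means of 44.6% ± 0.967 (SD, n = 2) in old and 44.6% ± 7.03 (SD, n = 3) in young sperm. The difference of old minus young was -0.0283 points. Without young replicate 2 it was -3.07 points and without young replicate 3 it was 3.87 points, so its sign rested on which of these libraries was kept, and without both, an alternative added after seeing the data, it was 1.55 points.

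The spread was widest in the uniformly partial tiles. They were at 44.998 and 46.5% in old replicates 1 and 2, against 44.1, 38.9 and 54.3% in young replicates 1 to 3. Mixed tiles were at 43.2 and 43.7% in the old and 43.0, 41.8 and 45.8% in the young libraries, and graded tiles at 40.4 and 41.5% in the old and 39.7, 36.5 and 46.7% in the young libraries. The other low-density tiles were at 91.7 and 91.6% in the old and 91.7, 92.1 and 90.6% in the young libraries, with the order of young replicates 2 and 3 turned. With the rule applied to the remaining libraries, the difference of old minus young was -3.46 points without young replicate 2 and 4.24 points without young replicate 3 in uniformly partial tiles, -0.586 and 1.21 points in mixed tiles, and -2.11 and 3.27 points in graded tiles.

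**Figure D4:**
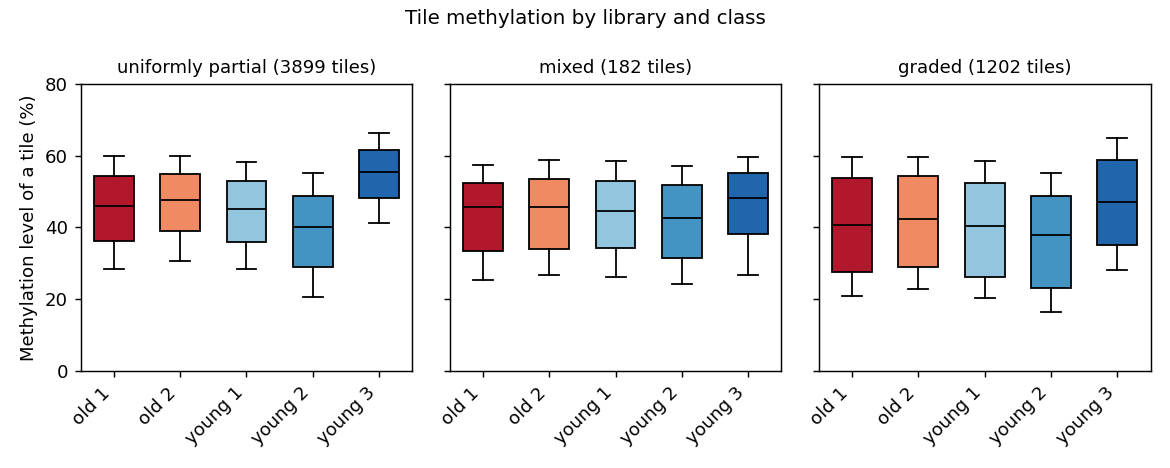
Methylation level of the tiles (y axis, %) in old replicates 1 and 2 and young replicates 1 to 3 (x axis), for uniformly partial, mixed and graded tiles. Boxes span the 25th to 75th percentiles with a line at the median, and whiskers reach the 10th and 90th percentiles over tiles. Young replicate 3 is highest and young replicate 2 lowest in each class, and the gap is widest in the uniformly partial tiles.

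Tile by tile, young replicate 3 was above young replicate 2 in 87.0% of the tiles, by a median of 14.4 points. The median gap was 16.1 points in uniformly partial, 11.3 points in graded and 4.16 points in mixed tiles, and -1.22 points in the other low-density tiles. Between old replicates 2 and 1 the median gap over the described tiles was 1.38 points. Young replicate 3 was the highest of the 5 libraries in 63.8% of the tiles and young replicate 2 the lowest in 55.4%. Of 2600 tiles with at least 5 measured CpGs, 1116 (42.9%) were higher in young replicate 3 than in young replicate 2 at every CpG, and 61 (2.35%) were lower at every CpG. The first share was 51.5% in uniformly partial and 8.06% in mixed tiles.

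The gap differed with the level of the single CpG and with the kind of tile. In the described tiles it was 15.8 points at partial CpGs, 6.24 points at low CpGs and 0.161 points at high CpGs. Partial CpGs had a gap of 16.4 points in uniformly partial, 13.5 points in graded and 8.26 points in mixed tiles, although those of mixed tiles averaged 44.9% in old and 45.7% in young sperm, close to the 44.5% in old and 44.6% in young sperm of uniformly partial tiles. In mixed tiles, low CpGs were at 8.97 and 10.005% in old replicates 1 and 2 and 7.65, 6.78 and 11.3% in young replicates 1 to 3, and high CpGs at 89.3 and 89.4% in the old and 89.2, 90.3 and 89.3% in the young libraries. Over all low-density tiles sorted by level, the gap was widest at 30 to 40%, at 18.3 points, was 1.32 points at 0 to 10%, and was -3.23 points at 80 to 90%. Partial CpGs of the other low-density tiles, whose levels are higher, at 68.3 and 67.9% in old replicates 1 and 2 and 67.1, 67.4 and 67.2% in young replicates 1 to 3, had a gap of -0.291 points.

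**Figure D5:**
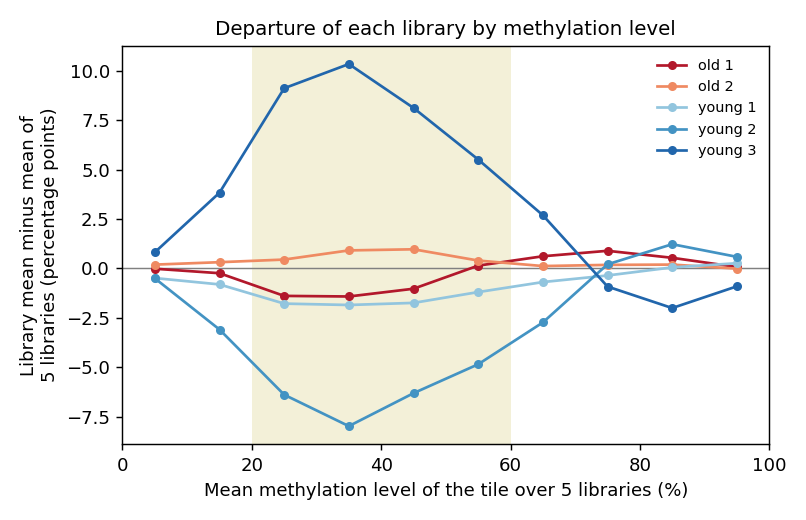
Mean level of each library minus the mean of the 5 libraries (y axis, percentage points) in low-density tiles grouped by their mean level (x axis, %), for old replicates 1 and 2 and young replicates 1 to 3, with the range from 20 to 60% shaded. Young replicate 3 lies above and young replicate 2 below the others throughout the shaded range, and their order is turned at 80 to 90%.

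The tiles with the widest gap were uniformly partial. In the tile in Col24a1, a collagen gene (chr3:145402001-145403000), the level was 35.5 and 41.2% in old replicates 1 and 2, against 39.5, 8.82 and 72.7% in young replicates 1 to 3. A tile 7.38 kb from Rbm12b2 (chr4:12113001-12114000) was at 36.0 and 27.8% in the old and 33.9, 3.09 and 64.4% in the young libraries, and the tile in Pced1b (chr15:97327001-97328000), with 11 CpGs, at 53.2 and 48.0% in the old and 30.6, 23.5 and 81.2% in the young libraries. In each of them the old libraries lay between young replicates 2 and 3, which follows largely from picking tiles by that gap. The tile in Lrrk2, a kinase gene, had 3 CpGs and at least 30 reads in a library, and was at 28.6 and 30.8% in the old and 44.1, 10 and 67.9% in the young libraries. A tile in Runx2, a transcription factor of bone (chr17:44618001-44619000), went the other way, at 46.7 and 44.4% in old replicates 1 and 2 and 30.8, 63.8 and 29.7% in young replicates 1 to 3.

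The libraries of both ages differed by more than counting error. As a root mean square over the tiles, the standard deviation was 6.38 points across the 2 old libraries, 1.46 times the 4.36 points from counting error, and 10.4 points across the 3 young libraries, 2.38 times the 4.38 points from counting error. In the other low-density tiles it was 2.82 points in the old libraries, 1.17 times counting error, and 3.57 points in the young libraries, 1.46 times counting error. In mixed tiles the ratios were 1.28 in the old and 1.498 in the young libraries. Depth per CpG differed little between the groups of tiles, with medians between 28.2 and 39.5 reads per CpG and library in the described tiles and between 27.5 and 38.7 in the others. The median tile had 4 measured CpGs, and 1630 tiles had exactly 3. Reads are not independent molecules, so counting errors are lower limits.

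None of the 5283 tiles passed the test between old and young sperm. The test was a two-sided quasi-binomial logistic model fitted over all 135997 tiles, and a tile was called if its Benjamini-Hochberg adjusted p was under 0.05 and the ages lay 10 points or more apart. Over all tiles the share called was 0.0%. Among the described tiles the smallest adjusted p was 0.872, while 450 tiles (8.52%) differed by 10 points or more, against 1.05% of all tiles. Counting error in a library had a median of 3.98 points in the described tiles and 2.02 points over all tiles. Most tiles also lie near full methylation, with less room to differ. Shares past 10 points, here and below, are therefore not like for like. At an unadjusted p under 0.05 there were 197 tiles (3.73%), 72 higher and 125 lower in old sperm, against 2.71% of all tiles, 2225 higher and 1457 lower. The split rested on single libraries: without young replicate 2, 15.1% of the tiles were under 0.05, 85 higher and 677 lower, against 4.79% of all tiles, and without young replicate 3, 19.2%, 943 higher and 99 lower, against 6.24% of all tiles. A fit by limma gave 0 calls and 36 tiles (0.681%) with p under 0.05 before adjustment, against 3.89% of all tiles, and a plain binomial model, which takes replicates as alike, called 114 (2.16%), against 0.264% of all tiles. Old and young libraries did not overlap in 482 tiles (9.12%), and the share over all tiles was 17.0%. With fewer libraries that share is larger by construction: it was 27.3% without young replicate 2, against 32.1% of all tiles, and 39.4% without young replicate 3, against 35.2% of all tiles. Differences of 10 points or more were then found in 17.2% and 17.9% of the described tiles, against 2.02% and 2.13% of all tiles. Without young replicate 3 the test called 2 tiles, both higher in old sperm, or 0.0368% of the tiles, against 0.00809% of all tiles. It called 0 without young replicate 2, where 0.00221% of all tiles were called, and 0 without both, where 446 tiles (8.49%) had p under 0.05 before adjustment, against 2.74% of all tiles. Of the 2 tiles called without young replicate 3, one lay in Zkscan14, a zinc finger gene (chr5:145203001-145204000), at 31.8 and 35.3% in old replicates 1 and 2 and 20.1, 19.6 and 40.9% in young replicates 1 to 3. The second (chr13:79248001-79249000) was at 61.6 and 56.7% in old replicates 1 and 2 and 45.1, 47.1 and 61.4% in young replicates 1 to 3.

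The tiles with the smallest p are given as values, since none was called. Higher in both old libraries was a tile in Gphn, the scaffold protein gephyrin of inhibitory synapses (chr12:78351001-78352000), at 43.6 and 49.2% in old replicates 1 and 2, against 33.3, 35.1 and 27.3% in young replicates 1 to 3, a difference of 14.5 points (unadjusted p = 5.2e-05 in the quasi-binomial model). The adjoining tile of the gene was at 38.5 and 49.3% in the old and 28.3, 36.0 and 24.8% in the young libraries. A tile in the transcription factor gene Nfix (chr8:84716001-84717000), with 24 CpGs, was at 66.5 and 63.0% in the old and 51.8, 57.8 and 56.8% in the young libraries. Lower in both old libraries was a graded tile 4.24 kb from the lncRNA gene Gm43568 (chr3:122634001-122635000), at 45.4 and 49.2% in old replicates 1 and 2, against 65.7, 68.1 and 68.6% in young replicates 1 to 3, a difference of -20.2 points. It had the smallest p of the described tiles (2.4e-05 in the quasi-binomial model, adjusted p = 0.872). Tsks, a testis-specific kinase substrate (chr7:44953001-44954000), was at 38.6 and 38.7% in the old and 50.6, 48.7 and 49.4% in the young libraries, and a tile 1.58 kb from the cation channel gene Trpc4 (chr3:54153001-54154000) at 32.2 and 39.5% in the old and 55.6, 60 and 58.5% in the young libraries. Both mixed tiles among the 10 were lower in old sperm: the tile in Sptb, a spectrin of red blood cells (chr12:76694001-76695000), at 49.7 and 54.3% in the old and 60.3, 60.8 and 61.8% in the young libraries, and a tile 5.57 kb from Gm34853 at 51.0 and 48.6% in the old and 54.8, 56.8 and 57.6% in the young libraries.

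Of the 30030 single CpGs, 1 passed the same test, fitted over all 984827 measured CpGs. The share called over all CpGs was 0.00335%. The called CpG, at chr13:79248170 in a uniformly partial tile, was at 96.0 and 92.4% in old replicates 1 and 2, against 74.3, 75.7 and 82.1% in young replicates 1 to 3, with between 172 and 225 reads in a library. It was higher by 16.9 points in old sperm (quasi-binomial model, Benjamini-Hochberg adjusted p = 0.0238). At an unadjusted p under 0.05 there were 991 CpGs (3.30%), against 2.72% of all CpGs. The call was lost without young replicate 1, where 0 CpGs were called, and in limma, which gave 0 calls and 639 CpGs (2.13%) with p under 0.05 before adjustment, against 4.32% of all CpGs. Counts without 1 library reached 52 CpGs (0.179%) without young replicate 2, 29 higher and 23 lower, against 0.0712% of all CpGs, and 56 (0.182%) without young replicate 3, 53 higher and 3 lower, against 0.0526% of all CpGs. Without both there were 0, and 0.0% of all CpGs, with 1356 (4.53%) at p under 0.05 before adjustment, against 2.56% of all CpGs.

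The place of the tiles was set against gene coordinates. Of the described tiles 15.4% lay within 1000 bp of an end of a gene, against 4.83% of the other low-density tiles, and 34.3% lay in a gene, against 44.0%. For protein-coding genes the share near an end was 22.0% in mixed, 18.97% in graded and 8.05% in uniformly partial tiles, and 2.64% in the other low-density tiles. The share of low-density tiles that met the rule, by the number of listed CpG positions, was 2.502% for 3 to 9, 6.87% for 10 to 19 and 19.4% for 20 to 29 positions, and 11.9% for 30 to 39. The gene table used here has no strand or exons, so these ends are not split into starts and stops, nor tiles into exonic and intronic ones. Starts are given by the RefSeq promoter sequences, which overlapped 6.04% of mixed, 6.91% of graded and 2.98% of uniformly partial tiles, and 0.696% of the other low-density tiles.

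Near gene ends, Nkx3-2, a homeobox gene of the skeleton (graded tile 0.483 kb away, 20 CpGs), was at 24.6 and 29.5% in old replicates 1 and 2, against 27.1, 28.5 and 23.2% in young replicates 1 to 3. Csrp1, a LIM domain protein (graded tile 0.772 kb away), was at 38.5 and 36.2% in the old and 41.2, 42.9 and 29.4% in the young libraries.

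The share of tiles that met the rule was counted for 9 gene lists. Of 223 low-density tiles in or within 1000 bp of vomeronasal receptor genes, which encode pheromone receptors, 39 (17.5%) met the rule, none of them mixed, against 4.02% of all low-density tiles. Clustered protocadherins had 10 of 42, developmental regulators 7 of 61 and olfactory receptors 13 of 230. Zinc finger genes had 35 of 866, spermatid genes 3 of 73, imprinted genes 5 of 184, synaptic and neurodevelopmental genes 35 of 1340, and germline and piRNA genes 1 of 53, which is the Fkbp6 tile. The vomeronasal tiles averaged 54.3 and 50.7% in old replicates 1 and 2, against 51.4, 46.3 and 55.0% in young replicates 1 to 3, with the ages overlapping. Vmn2r72 on chromosome 7 was at 45.9 and 45.7% in the old and 36.6, 32.5 and 48.5% in the young libraries. Whether reads were shared between the near-identical copies of such genes was not tested.

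Among spermatid genes, Zpbp, an acrosomal protein that binds the zona pellucida, held 2 adjoining uniformly partial tiles. The tile at chr11:11437001-11438000 was at 40.6 and 48.9% in old replicates 1 and 2, against 33.6, 27.2 and 51.6% in young replicates 1 to 3, and its neighbour at 32.7 and 43.0% in the old and 37.4, 19.5 and 53.0% in the young libraries. Among imprinted genes, Commd1 was at 21.4 and 36.1% in the old and 24.1, 10.1 and 30.9% in the young libraries. Usp29, a paternally expressed gene of the Peg3 cluster, was at 31.5 and 36.2% in the old and 27.3, 15.8 and 47.4% in the young libraries, and Slc38a4, an amino acid transporter, at 37.9 and 42.0% in the old and 34.9, 36.2 and 41.5% in the young libraries. The ages overlap in each of them. Among synaptic genes, the AMPA receptor gene Gria2 was at 35.9 and 30.6% in the old and 38.5, 25.3 and 49.0% in the young libraries, and the kainate receptor gene Grik2 at 35.2 and 42.7% in the old and 42.6, 46.4 and 68.5% in the young libraries. Among developmental regulators, Pax2 was at 27.0 and 18.0% in the old and 39.5, 12.6 and 42.9% in the young libraries, Tbx5 at 24.2 and 18.4% in the old and 21.6, 21.8 and 14.6% in the young libraries, and the mixed tile in Hoxa7 at 20.3 and 28.8% in the old and 26.8, 16.9 and 24.7% in the young libraries.

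Measured tiles were sparse, so most could not be followed along the DNA. Of the 5283 tiles, 1764 had a measured low-density tile right beside them, and 772 of these (43.8%) adjoined another described tile, as did 1107 (3.54%) of 31239 other low-density tiles with a measured neighbour. With 1 missing tile allowed, 365 runs held 2 tiles and the longest run held 39 tiles, all uniformly partial (chr9:3000001-3039000). In that run the level lay between 41.7 and 58.4% in every tile, with means of 47.4 and 48.9% in old replicates 1 and 2, against 45.8, 44.4 and 54.9% in young replicates 1 to 3. Its CpGs had a median of 1091 reads per library, far above the 28.2 to 39.5 of the described tiles as a whole. A run of 6 tiles (chr2:98662001-98668000) had a median of 6578 reads per CpG and means of 52.1 and 53.7% in old replicates 1 and 2, against 49.4, 46.9 and 58.0% in young replicates 1 to 3. The gap between young replicates 2 and 3 was also found in these deeply covered runs. Reads from repeated copies can gather at such places, which was not tested, as no repeat annotation was used.

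The 1-Mb stretches with the most tiles after the one on chromosome 9 were on chromosome 7 at 85000001, with 39 of 91 low-density tiles around the genes Vmn2r66 to Vmn2r74, and on chromosome 4 at 113000001, with 32 of 67 around Skint5 and Skint6, genes of an immunoglobulin-like family. Stretches with Vmn2r genes on chromosome 17 (31 of 84), with Prl2c2 and Prl2c3, genes of the prolactin family, on chromosome 13 (29 of 98) and with Esp genes, which encode secreted pheromone peptides, on chromosome 17 (29 of 87) followed. In the Skint stretch, the means were 56.5 and 51.5% in old replicates 1 and 2, against 49.5, 45.8 and 56.8% in young replicates 1 to 3. A tile was found in 1817 of the 2410 stretches with a low-density tile. The share of low-density tiles that met the rule was highest on chromosome 7, at 6.74%, and chromosome 17, at 5.79%.

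The limits of 20 and 60% are not breaks in the data. Just inside 20% was the tile in Nlgn1, with a mean of 20.02%, and just outside it were a tile 2.51 kb from Dok2 and a tile in Tenm3, with means of 19.99 and 19.95%. Just inside 60% were tiles 579.7 kb from Gm33458 and 0.985 kb from Nrf1, with means of 59.996 and 59.988%, and just outside it tiles 472.3 kb from Gm41480 and 19.6 kb from Il1b, with means of 60.0004 and 60.004%. Denser tiles at the same level were few: 23 autosomal tiles with 40 or more CpG positions lay between 20 and 60%, and averaged 39.8% ± 4.49 (SD, n = 2) in old and 34.7% ± 3.78 (SD, n = 3) in young sperm. Without young replicate 2 the means of the tiles so chosen were 39.2% in old and 34.5% in young sperm, and without young replicate 3 they were 43.7% in old and 36.2% in young sperm.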

How the data were processed

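Bisulfite sequencing of 2 old and 3 young sperm libraries, grouped by the age in the labels, gave the data. The submitters' processing notes name methylKit 1.4.0, Bismark 0.16.3, Trim Galore 0.4.3 and the GRCm38 (mm10) build. Their settings and any removal of duplicate reads were not stated in those notes. Per the file headers, the authors deposited for every cytosine its coverage, a count of reads, with the percent of reads showing C and T. No file lists a cytosine under 5 reads, and percent times coverage was a whole number of reads for 100% of cytosines within 0.01 points.

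Counts of the 2 strands were added, and tiles of 1000 bp from base 1 were formed over CpGs that had 10 or more reads in each library, with no upper limit on coverage. Unplaced sequences (2.77 to 3.85% of reads) were left out. Old was compared with young in a quasi-binomial logistic model whose dispersion was moderated as in limma and kept at 1 or more, with Benjamini-Hochberg adjustment over all tiles or CpGs, and the test was tried on simulated data. Members, classes, gene lists and the rule for named tiles (smallest p, most CpGs, longest runs, nearest the limits, widest gap between young replicates 3 and 2, gene lists, gene ends) were chosen with earlier results of these data known, and a selection of the tiles so named is printed. Gene names and promoters are from RefSeq (GRCm38.p6). Alternatives changed the read minimum, thresholds, grid, weights, model and libraries. Software was R 4.3.3 with limma 3.58.1, and matplotlib 3.10.9, scipy 1.17.1, pandas 2.3.3 and numpy 2.4.6 under Python 3.11.15.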

Additional observations from a re-analysis of the deposited data

How the results depend on the processing

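The number of tiles followed the thresholds. With 20 reads required there were 2587 tiles, 1959 of them uniformly partial and 70 mixed, and with 5 reads 11473, 8150 and 456. With at least 5 CpGs there were 2600 and 1909 uniformly partial, and with a level of 30 to 50% there were 2547, with 2047 uniformly partial and 87 mixed. The mixed class moved most with the definition of a partial CpG: 40 tiles at 10 to 90%, 667 at 30 to 70% (with 2137 uniformly partial), and 23 where no CpG may be partial. These changes follow from how the settings are built. A binomial model called 114 tiles (33 higher and 81 lower in old sperm; 2.16%, against 0.264% of all tiles) and 76 CpGs (59 higher and 17 lower; 0.253%, against 0.0943% of all CpGs). Limma called 0 CpGs. With the replicate number as a block, 0 tiles were called, and 2 CpGs (0.00666%, against 0.00924% of all CpGs). At an unadjusted p under 0.05 there were then 708 tiles (13.4%), 590 higher and 118 lower in old sperm, against 3.86% of all tiles. Replicate 3 is a young library only, so its block term takes up that library. The age contrast then rests on replicates 1 and 2, as it does without young replicate 3, and this rise cannot be read as an effect of pairing. The correlation of same-numbered deviations over all tiles was 0.018 and -0.0461. These 2 values are not separate checks, since the deviations of 2 old libraries mirror each other. Over all tiles the median standard deviation of the 5 libraries was 2.17 points, near the 2.02 points from counting error. Whether the numbers pair the libraries could therefore not be decided. With 1 library left out, called tiles ranged from 0 to 2, called CpGs from 0 to 56, and the mean difference of old minus young from -3.07 to 3.87 points, and 93.6 to 97.5% of the tiles were also chosen. Without young replicates 2 and 3 together, 0 CpGs were called. Of 128 age differences of named tiles recomputed, 10 passed the threshold, all in the binomial model, and none changed its sign. Only the tiles chosen for the smallest p in these same data were recomputed, and the ages do not overlap in any of them. Leaving out a library or changing the model could therefore not turn the sign, so its constancy shows nothing further. Depth limits the tiles with few CpGs most: the shallowest had 30 reads in a library. With 2 against 3 libraries a permutation of the ages cannot give a p under 0.1.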
